A study of Peromyscus maniculatus with 6 samples.

Results

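The genes described here encode the contractile actin cytoskeleton and the focal adhesions, together with serum response factor (SRF) and its coactivators. A list of 39 symbols was matched by name, ignoring case, to the table of 24281 genes, and 31 were found, each on 1 gene ID. The symbols Actb, Actg1, Cnn2, Myl9, Tpm3, Tpm4, Zyx and Tes are not names in the table and were not analysed here. All 31 matched genes passed the filter on low counts and were among the 13503 genes tested.

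Fibroblasts had been cultured from punches of the ear of 4-week-old deer mice of the BW stock (Peromyscus maniculatus). The 3 animals BW35770, BW35772 and BW35773 each gave 1 untreated control library and 1 library from cells exposed to tunicamycin for 5 h, so both groups share their animals and differ in the drug alone as labelled. Tunicamycin blocks N-linked glycosylation and thereby sets off the unfolded protein response, whose effect on the transcriptome is the question of the study. The labels give 5 mg per mL as its concentration, which could not be checked here, and do not name a vehicle for the controls.

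SRF binds a short DNA element, the CArG box, in front of many cytoskeletal genes. Its coactivators MKL1 and MKL2 (also called MRTF-A and MRTF-B) are held in the cytoplasm by unpolymerised actin and enter the nucleus when actin assembles into filaments. A second group of partners, the ternary complex factors, instead couples SRF to MAP kinase signalling and to immediate early genes. In cultured fibroblasts the MRTF route is known for driving smooth-muscle-type actin, transgelin, calponins and tropomyosins, the proteins of stress fibres. Stress fibres pull on focal adhesions, where integrins are tied to actin through talin, vinculin and LIM proteins.

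Libraries held 37852385 to 49352126 counts on genes, and the 31 genes took 1.43 to 1.68% of them. Values are CPM (counts divided by library size, scaled by TMM, which corrects for a few genes taking a large share of a library). Fold changes come from edgeR's quasi-likelihood test with the animal as a block, and a gene is said to have risen or fallen only at an adjusted p under 0.05 over all 13503 genes. The 11 fibroblast markers named in the table summed to 15570 to 21530 CPM in controls and 15980 to 20670 CPM with tunicamycin, with Mfap5 at or below 1 CPM throughout. Vim was the largest part of this sum, at 8732, 9455 and 9763 CPM in the controls of BW35770, BW35772 and BW35773. Thy1 was at 751.8, 85.2 and 118 CPM in the same order, and Col1a1 at 1107, 2857 and 2708 CPM. Chondrocyte markers summed to 1920 to 8620 CPM in controls and 2140 to 9185 CPM with tunicamycin, lowest in both libraries of animal BW35770. Col2a1, one of them, was at 742.6, 5999 and 4538 CPM in controls in the same order of animals, above Col1a1 in BW35772 and BW35773. The mix of cell types in the cultures was not tested.

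After 5 h of tunicamycin Tpm1 and Lmod1, which encode proteins of the actin thin filament, had fallen, and 0 of the 31 genes had risen (edgeR). The 2 falls are 6.45% of the 31 genes, against 2.4% of all tested genes called lower. Of all tested genes 3.07% were called higher, and 5.47% were called in either direction. Whether a share that rests on 2 genes differs from that of the whole table was not tested. Fitted log2 fold changes ran from -1.24 to 0.44, with a median of -0.19 against -0.03 over all tested genes. Of the 31 values 24 were below 0 and 7 above. At an unadjusted p under 0.05 there were 11 lower and 2 higher, or 41.9% of the genes against 20.9% of all tested genes (10.4% higher and 10.5% lower). In 14 of the 31 genes, or 45.2%, all 3 pairs were lower with tunicamycin, against 21.9% of all tested genes. The treated and control libraries did not overlap for 10 genes, 9 lower and 1 higher, which is 32.3% of the 31 against 22.3% of all tested genes (9.98% lower and 12.3% higher). These shares describe a list that was chosen as a pathway, with earlier results of these data known. They are not a test of the list.

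Srf encodes the transcription factor itself (ENSPEMG00000024074, 8 exons listed, on the minus strand of scaffold KI615800.1 from base 234143 to 242100). It stood at 30.5, 27.8 and 30.2 CPM in the controls of animals BW35770, BW35772 and BW35773, and at 20.6, 25.5 and 20.1 CPM in their treated libraries. All 3 treated values lay below all 3 control values, with the smallest drop in animal BW35772. Its log2 fold change of -0.43 ± 0.15 (SE, n = 3 pairs) was not called (edgeR adjusted p = 0.156).

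Mkl1, the more abundant of the coactivator genes, was at 85.1, 91.1 and 74.8 CPM in controls and 104.5, 94.4 and 81.4 CPM with tunicamycin. It was higher in each treated library than in its own control, but the groups overlapped, and its log2 fold change of 0.16 ± 0.11 was not called (edgeR adjusted p = 0.491). Mkl2 was at 36.6, 35.7 and 37.8 CPM in controls and 34.5, 39.2 and 29.3 CPM with tunicamycin, so that the pairs moved in both directions (log2 fold change -0.11 ± 0.14, edgeR adjusted p = 0.729).

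**Figure D1:**
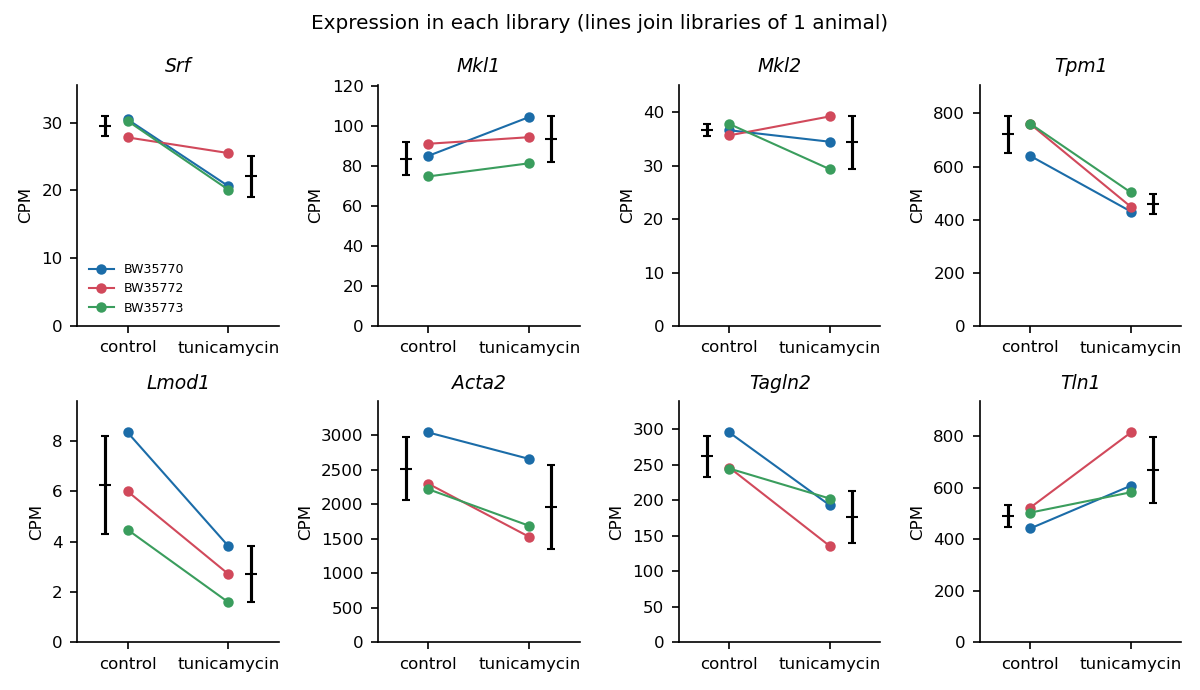
CPM (vertical axes, each from 0) of 8 genes in control and tunicamycin libraries; coloured lines join the libraries of 1 animal, and black bars beside them give the mean ± SD over 3 libraries. Tpm1 and Lmod1 dropped in all 3 animals and were called lower, whereas Mkl1 and Mkl2 stayed within overlapping ranges, and Tln1 was higher in every treated library without being called.

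Of the tropomyosins, which lie along the actin filament and regulate myosin's access to it, Tpm1 fell. Tpm1 (ENSPEMG00000020869, scaffold KI615434.1, plus strand, bases 4409498 to 4436549) was at 640.4, 760.4 and 761.7 CPM in the controls of animals BW35770, BW35772 and BW35773. It was at 430.7, 448.4 and 502.4 CPM with tunicamycin, and the groups did not overlap. The mean went from 720.8 ± 69.7 to 460.5 ± 37.3 CPM (SD, n = 3). The fitted log2 fold change was -0.64 ± 0.11 (SE), with an edgeR adjusted p = 0.0215. Counts cover the whole gene, so switches between the muscle and non-muscle transcripts of Tpm1 are not resolved.

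Lmod1 encodes leiomodin 1, a smooth muscle protein that starts new actin filaments. It had the lowest mean level per base of the 31 genes (ENSPEMG00000015971, scaffold KI615494.1, minus strand, bases 4517411 to 4559362). Its controls, at 1.62 to 3.02 CPM per kb of exon, overlapped those of Actg2, at 2.16 to 3.15 CPM per kb. Control libraries held 8.34, 6.00 and 4.48 CPM and treated libraries 3.83, 2.72 and 1.6 CPM, from 64 to 353 counts a library. The within-animal differences were -1.12, -1.14 and -1.46 on the log2 scale, and the groups did not overlap although the animals already differed by 1.86 times in the controls. The mean went from 6.28 ± 1.95 to 2.71 ± 1.12 CPM (SD, n = 3). The fitted log2 fold change was -1.24 ± 0.22 (SE), with an edgeR adjusted p = 0.0235.

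Tpm2, the second tropomyosin named in the table, was at 1071, 1008 and 938.7 CPM in controls and 825.7, 639.8 and 874.9 CPM with tunicamycin. Its groups did not overlap either, but its log2 fold change of -0.38 ± 0.14 was not called (edgeR adjusted p = 0.178). Cald1, caldesmon, an actin-binding brake on myosin, had -0.09 ± 0.14, with pairs in both directions.

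Whether both genes were called depended on which animals and which fit were used. Without the pair of animal BW35770 the share called over all genes went from 5.47 to 0.821%. In that fit the log2 fold change of Tpm1 was -0.68 and that of Lmod1 -1.31, and the edgeR adjusted p-values were 0.294 and 0.281. Without animal BW35772 they were 0.0312 and 0.00413, and without animal BW35773 0.0211 and 0.0309. Without the block, differences between animals count as error. In that edgeR fit 2.58% of all tested genes and 0 of the 31 were called (8 lower and 1 higher at an unadjusted p under 0.05), with adjusted p = 0.0534 for Tpm1 and 0.175 for Lmod1.

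Smooth muscle and pericytes of the ear also express Lmod1, so markers of these cells are given beside it. The 11 markers named in the table include the members Lmod1, Cnn1 and Actg2. They summed to 508.6 to 785.9 CPM in controls and 445.7 to 908.8 CPM with tunicamycin, most of it from Cspg4, a proteoglycan. Des, Kcnj8, Abcc9 and Mcam stayed at or below 1 CPM in every library, and none of the 11 was at 0 in all libraries. Notch3, a receptor of mural cells, fell from 10.4, 11.5 and 9.16 to 3.81, 7.85 and 3.67 CPM (log2 fold change -1.10 ± 0.23, edgeR adjusted p = 0.0427). Notch3 was not called without animal BW35770 or BW35773 (edgeR adjusted p = 0.414 and 0.0596), without the block (0.179) or by limma-voom (0.0504). Myh11, the smooth muscle myosin heavy chain, was at 8.04, 12.0 and 14.3 CPM in controls and 13.8, 16.0 and 13.1 CPM with tunicamycin and was not called. Fewer cells of a type and less RNA per cell cannot be told apart in these bulk libraries, and the part of such cells in the fall of Lmod1 was not tested.

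Acta2, the smooth muscle actin that marks myofibroblasts, was the most abundant of the 31 genes per kilobase of exon. It was at 3039, 2296 and 2217 CPM in controls and 2656, 1528 and 1688 CPM with tunicamycin. Every treated library was below its own control, but animal BW35770 with tunicamycin still exceeded the controls of the other animals. Its log2 fold change was -0.39 ± 0.13 (edgeR adjusted p = 0.139). Actg2, the enteric smooth muscle actin, was rare, with 85 to 187 counts a library. Its groups did not overlap, and its log2 fold change was -0.75 ± 0.25 (edgeR adjusted p = 0.148). The actins are close in sequence, and the sources used here do not say how reads with several matches were counted, so some counts of Actg2 could come from Acta2.

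Transgelins and calponins bind actin filaments and stabilise them, and all 4 measured members were lower in all 3 pairs without being called. Tagln2 was at 295.2, 245.9 and 244.5 CPM in controls and 192.6, 135.2 and 202.2 CPM with tunicamycin, with no overlap (log2 fold change -0.58 ± 0.14, edgeR adjusted p = 0.0577). It passed the threshold with DESeq2 (adjusted p = 0.00507), without animal BW35773 (edgeR adjusted p = 0.014), with no filter and with the exon length trend removed (edgeR adjusted p = 0.0112). Cnn1, the smooth muscle calponin, had -0.60 ± 0.16 (edgeR adjusted p = 0.0788) and was called lower by DESeq2 (adjusted p = 0.0368) and with the length trend removed (edgeR adjusted p = 0.0453). Tagln, transgelin or SM22-alpha, was at 240.2, 118.3 and 141.2 CPM in controls and 198.1, 76.6 and 119.4 CPM with tunicamycin. The highest control was 2.03 times the lowest, and the order of the animals was the same in both groups (log2 fold change -0.38 ± 0.12, edgeR adjusted p = 0.127). Cnn3, the calponin of non-muscle cells, had -0.28 ± 0.11 and groups that did not overlap.

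**Figure D2:**
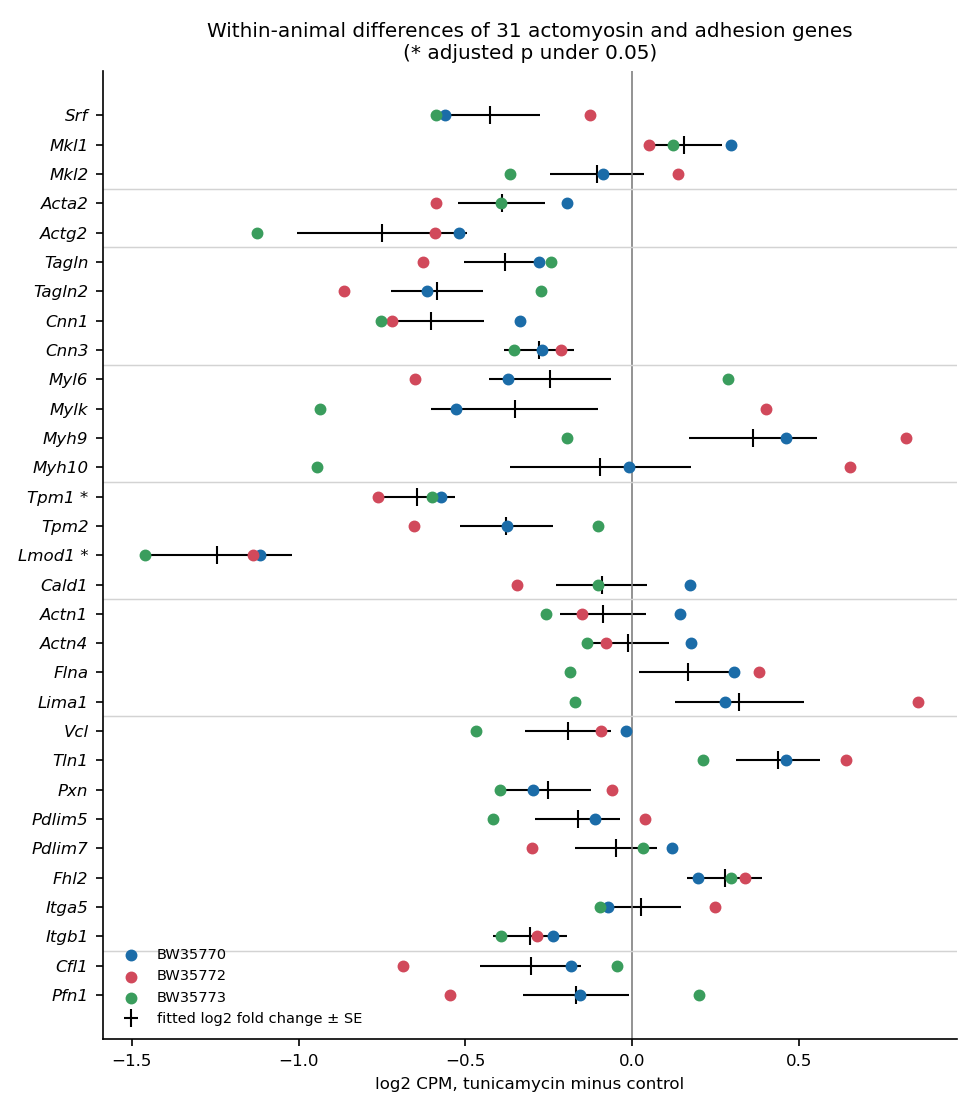
Difference in log2 CPM between the tunicamycin and the control library of each animal (coloured points) for the 31 genes, with the fitted log2 fold change ± SE in black; grey lines separate the roles in the order SRF and coactivators, actins, transgelins and calponins, myosin II, thin filament, cross-linkers, adhesion, and actin turnover. All points of Tpm1, Lmod1, the actins, the transgelins and the calponins lie left of 0, whereas the myosin II genes and cross-linkers have points on both sides.

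The genes of non-muscle myosin II, the motor of stress fibres, moved in different directions in different animals. Myh9, the heavy chain IIA, was at 752, 776.5 and 918.9 CPM in controls and 1034, 1370 and 802.1 CPM with tunicamycin. It was thus higher in animals BW35770 and BW35772 and lower in BW35773 (log2 fold change 0.36 ± 0.19, edgeR adjusted p = 0.342). Without animal BW35773 its log2 fold change was 0.67 and it was called higher (edgeR adjusted p = 0.0274). Myh10, the heavy chain IIB, had differences of -0.01, 0.65 and -0.94 on the log2 scale in the same order of animals. Mylk, the kinase that phosphorylates the myosin light chain, had differences of -0.53, 0.40 and -0.94, and was called lower without animal BW35772 (log2 fold change -0.73, edgeR adjusted p = 0.0179). Myl6, the essential light chain, was at 989.8, 858 and 942.1 CPM in controls and 765.4, 545.8 and 1149 CPM with tunicamycin, with the highest and the lowest value both among treated libraries (log2 fold change -0.25 ± 0.18, edgeR adjusted p = 0.508).

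Cross-linkers tie actin filaments into bundles and networks, and 0 of the 4 were called by edgeR, DESeq2 or limma-voom or passed an unadjusted edgeR p under 0.05. The alpha-actinins Actn1 and Actn4 had log2 fold changes of -0.09 ± 0.13 and -0.01 ± 0.12. Flna, filamin A, had 0.17 ± 0.15 and Lima1, the LIM protein EPLIN, 0.32 ± 0.19. All 4 differed in sign between animals, and Flna and Lima1 were lower in BW35773 alone.

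Among adhesion genes, 0 of 8 were called by edgeR (2 higher and 1 lower at an unadjusted p under 0.05) and the 3 pairs had the same sign in 5. Tln1, talin 1, which links integrins to actin and activates them, was at 441.4, 521.9 and 502.7 CPM in controls and 607.2, 813.2 and 581.7 CPM with tunicamycin. It was the one member whose treated libraries all lay above the controls (log2 fold change 0.44 ± 0.13, edgeR adjusted p = 0.102). DESeq2 called it higher (adjusted p = 0.0259), as did the edgeR fit without animal BW35773 (adjusted p = 0.0263), while with the length trend removed its log2 fold change was 0.34 (edgeR adjusted p = 0.0645). Fhl2, a LIM-domain cofactor, was higher in each pair, at 77.9, 44.7 and 52.5 CPM in controls and 89.3, 56.5 and 64.4 CPM with tunicamycin. Its groups overlapped because animal BW35770 was the highest in both (log2 fold change 0.28 ± 0.11, edgeR adjusted p = 0.214).

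Itgb1, the integrin beta-1 chain shared by most matrix receptors of fibroblasts, was at 714.4, 694.5 and 711.1 CPM in controls and 605.7, 569.7 and 541.8 CPM with tunicamycin. The controls were within 1.03 times of each other and the groups did not overlap (log2 fold change -0.31 ± 0.11, edgeR adjusted p = 0.174), and it was called lower with the length trend removed (edgeR adjusted p = 0.0432). Its partner in the fibronectin receptor, Itga5, had 0.03 ± 0.12. Vcl, vinculin, which reinforces loaded adhesions, was at 354.3, 348.7 and 351.2 CPM in controls and 349.9, 326.4 and 253.8 CPM with tunicamycin (log2 fold change -0.19 ± 0.13). Vcl was the only member with an exon that overlaps an exon of another gene in the table, Ap3m1 on the opposite strand. Pxn, the adhesion scaffold paxillin, had -0.25 ± 0.13, and the PDZ-LIM genes Pdlim5 and Pdlim7 had -0.16 ± 0.13 and -0.05 ± 0.12.

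Cfl1, cofilin, which severs filaments, was at 1023, 1012 and 928.3 CPM in controls and 901.5, 628.9 and 899.8 CPM with tunicamycin. The drop in animal BW35772 was far larger than in the others (log2 fold change -0.30 ± 0.15, edgeR adjusted p = 0.306). Pfn1, profilin, which feeds monomers to growing filaments, was at 963.6, 947.9 and 942.3 CPM in controls and 864.6, 648.6 and 1083 CPM with tunicamycin. Its controls lay within 1.02 times of each other while the treated libraries lay on both sides of them (log2 fold change -0.17 ± 0.16, edgeR adjusted p = 0.614).

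Over all tested genes the differences moved with exon length, in opposite ways in different animals. Those up to 1 kb had a median log2 difference of -0.29 in animal BW35770, -0.44 in BW35772 and 0.15 in BW35773. Those over 4 kb had 0.13, 0.17 and -0.18 in the same order. Among the 31, the 3 genes up to 1 kb (Cnn3, Myl6 and Pfn1) had medians of -0.27, -0.55 and 0.20, and the 10 genes over 4 kb had 0.08, 0.26 and -0.28. The 9 genes from 1 to 2 kb had -0.34, -0.63 and -0.27 and the 9 from 2 to 4 kb -0.07, -0.29 and -0.26. In BW35773 the 3 longer classes thus lay close together, and of the shortest genes Cnn3 was lower there and Myl6 and Pfn1 higher. Myh9, Tln1 and Flna are among the long genes. With each library's trend with exon length removed, 5 of the 31 were called lower, namely Tpm1, Lmod1, Tagln2, Cnn1 and Itgb1, and 0 higher. In that fit 752 of the 13503 tested genes were called lower and 728 higher. Together these were 11% of all tested genes, against 5.47% with the trend left in. The log2 fold change was then -0.68 for Tpm1 and -1.28 for Lmod1 (edgeR adjusted p = 0.00277 and 0.00683). It was 0.28 for Myh9, 0.07 for Flna, -0.04 for Myl6 and -0.03 for Pfn1.

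**Figure D3:**
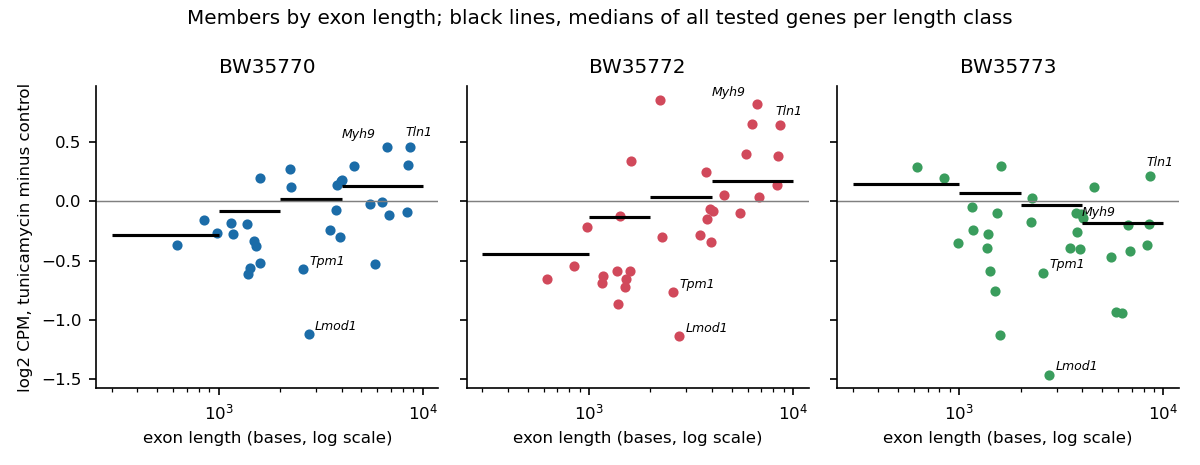
Difference in log2 CPM, tunicamycin minus control, of the 31 genes (points) against exon length in bases on a log axis, in 1 panel for each animal; black lines give the median of all tested genes up to 1 kb, from 1 to 2, from 2 to 4 and over 4 kb. The lines climb with length in BW35770 and BW35772 and descend in BW35773, and Lmod1 and Tpm1 lie below them in all 3.

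Per kilobase of exon, the levels in controls spanned from 2.27 CPM per kb for Lmod1 to 1835 CPM per kb for Acta2. Acta2 was followed by Myl6 at 1490, Pfn1 at 1128, Cfl1 at 856.8 and Tpm2 at 658.8 CPM per kb (means of 3 controls), and none of these 5 overlapped its neighbour in the order. In all, 12 of the 30 neighbouring pairs overlapped in the range of their controls. Srf at 20.8 and Mkl1 at 18.2 CPM per kb were such a pair, and Mkl2 stood at 4.41 CPM per kb. Controls differed most between animals for Tagln (2.03 times), Lmod1 (1.86), Fhl2 (1.74) and Cnn1 (1.63), each highest in animal BW35770, and least for Vcl and Pfn1.

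**Figure D4:**
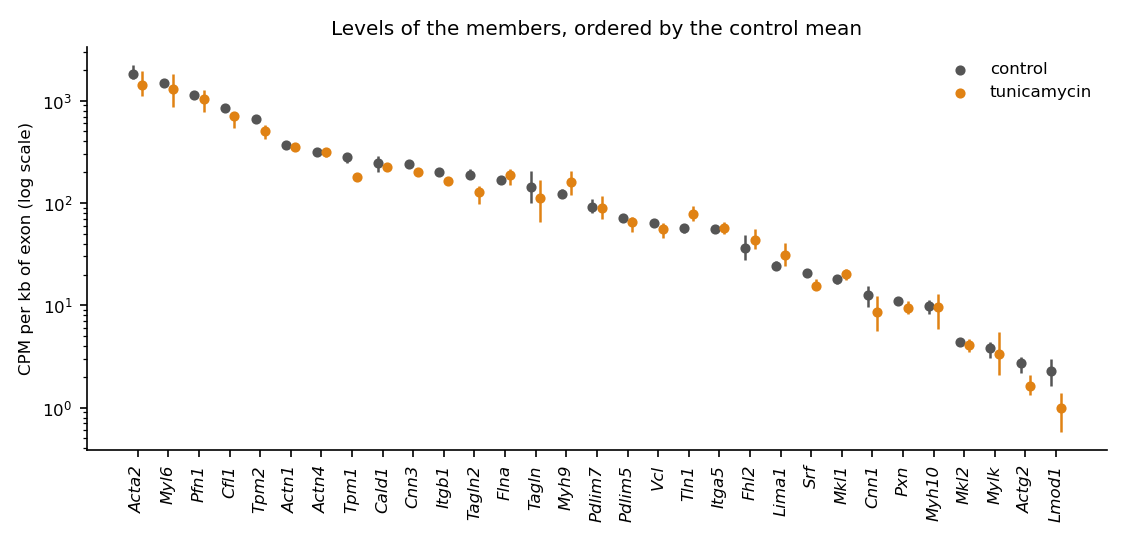
CPM per kilobase of exon (log axis) of the 31 genes, ordered by the control mean; points are means and vertical lines the range of 3 libraries, grey for control and orange for tunicamycin. Levels fall from 1835 CPM per kb for Acta2 to 2.27 for Lmod1 in controls, and the orange point of Tpm1 sits clear of its control range.

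Further genes of the same machinery were read from lists of other pathway members. Over all tested genes 3.07% were called higher and 2.4% lower, which is the background for the counts called in each list. Of 10 tested genes that encode ternary complex factors or immediate early targets of these factors and SRF 2 rose and 0 fell, with a median log2 fold change of 0.27. The ternary complex factors among them, Elk1, Elk3 and Elk4, had -0.06 ± 0.13, -0.40 ± 0.12 and 0.60 ± 0.18 and were not called. Egr1, a zinc-finger factor, went from 6.55, 9.65 and 7.21 to 57.8, 38.2 and 48.8 CPM (log2 fold change 2.63 ± 0.23, edgeR adjusted p = 0.00133). Ier2, an immediate early nuclear protein, rose by 1.29 ± 0.20 (edgeR adjusted p = 0.0143), while Fos had 0.39 ± 0.22 at 3.58 to 6.34 CPM and was not called.

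Of 18 tested further targets of SRF and the MRTFs or of smooth muscle 2 rose and 0 fell, with a median of -0.20. These were Synpo2, an actin-bundling protein of muscle Z-discs, at 0.72 ± 0.13 and the PDZ-LIM gene Pdlim4 at 0.58 ± 0.13 (edgeR adjusted p = 0.0245 and 0.0464). Ctgf and Cyr61, matricellular genes shared with YAP, had -0.03 ± 0.12 and -0.16 ± 0.11. Of 6 tested factors of nuclear actin and MRTF transport 0 were called by edgeR, also at an unadjusted p under 0.05, or by DESeq2.

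Of 34 other adhesion and integrin genes 3 fell and 0 rose, with a median of -0.09. Lasp1, an actin-binding LIM and SH3 protein, went from 346.7, 353.4 and 380.2 to 183.8, 203.9 and 196.3 CPM (log2 fold change -0.89 ± 0.11, edgeR adjusted p = 0.00582). Kank2, a talin-binding protein, fell by 1.07 ± 0.23 and Fblim1, the filamin-binding protein migfilin, by 1.32 ± 0.28 on the log2 scale (edgeR adjusted p = 0.0437 and 0.0441), the latter from a level of 6.83 CPM or less.

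Of 30 genes of actin nucleation, capping and monomer binding 4 fell and 0 rose, against 2.4% lower and 3.07% higher over all tested genes. The list's median was -0.22, and 28 genes had a log2 fold change below 0, as had 53.3% of all tested genes. Arpc4 and Arpc5, subunits of the branching ARP2/3 complex, fell by 0.92 ± 0.15 and 0.67 ± 0.11 on the log2 scale (edgeR adjusted p = 0.0181 and 0.0204). The bundling protein fascin, Fscn1, fell by 0.64 ± 0.11 and moesin, Msn, which ties actin to the membrane, by 0.68 ± 0.12 (edgeR adjusted p = 0.0192 and 0.0217). Without animal BW35770 all of the called genes of these lists lost their call except Egr1 (edgeR adjusted p = 0.0086) and Ier2 (0.0462), and the share called over all genes went from 5.47 to 0.821%. In that fit the others had edgeR adjusted p-values of 0.134 for Lasp1, 0.213 for Arpc4, 0.231 for Msn, 0.307 for Fscn1, 0.321 for Kank2, 0.345 for Arpc5, 0.355 for Pdlim4, 0.358 for Synpo2 and 0.378 for Fblim1. The log2 fold changes there were -0.87 for Lasp1, -0.86 for Arpc4, -0.75 for Msn and -0.64 for Fscn1. Kank2 and Fblim1 were also not called without animal BW35773 (0.055 and 0.0532).

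**Figure D5:**
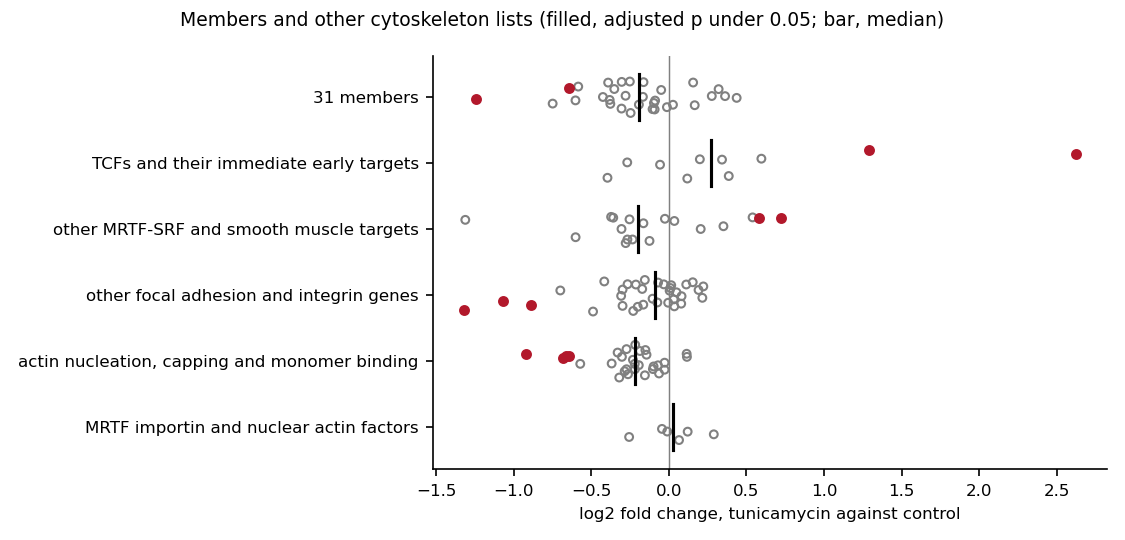
Fitted log2 fold changes (horizontal axis) of the 31 members and of the tested genes of 5 further lists, 1 point a gene with random vertical spread; filled points passed an adjusted p under 0.05 and bars are medians. Medians run from -0.22 for actin nucleation to 0.27 for ternary complex factors (TCFs) with their immediate early targets, and Egr1 at 2.63 is the point farthest right.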

How the data were processed

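The table deposited by the authors holds raw read counts per gene, in 6 library columns. Alignment used STAR 2.6.1 and SAMtools 1.6, and counting used featureCounts of Subread, per the submitters' processing notes. No build is named in the sources used here, and scaffold positions follow the table. Libraries were directional, per the labels. Exon length is the deposited table's own column of annotated bases.

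The tests used edgeR 4.0.16 under R 4.3.3 (filterByExpr with a minimum count of 10, TMM, two-sided quasi-likelihood test, Benjamini-Hochberg adjustment over 13503 genes). Pairs come from the animal number in the titles; deviations from group means correlated at 0.656, 0.408 and 0.216 within animals. Log2 differences use a prior count of 2. SE is the log2 fold change over the root of F. Alternatives included DESeq2 1.42.0, limma-voom (limma 3.58.1) and a lowess curve for exon length. The members and lists were chosen with earlier results of these data known. Named genes were Srf, Mkl1, Mkl2, called members, the 3 most abundant uncalled members and up to 4 called genes a list; other members were described by role after their values were seen. A planned promoter motif search was not run, and a further gene list is not reported here. Of the marker lists, edgeR, DESeq2 and limma-voom called 0 of 10 tested fibroblast, 9 chondrocyte, 4 skeletal muscle, 4 immune and 2 endothelial markers (3, 1, 1, 1 and 0 had an unadjusted edgeR p under 0.05). They called 1 of 3 keratinocyte markers (Krt14) and 1 of 4 melanocyte and Schwann cell markers (S100b) lower. Replicates are cultures from 3 animals. With the block, edgeR p-values measure the treatment effect against an error drawn from the within-animal differences and moderated across all tested genes. Each gene alone leaves 2 residual degrees of freedom. The p-values and SE therefore do not rest only on the spread of a gene's own 3 differences. Elk3, for example, had differences of -0.39, -0.40 and -0.40 on the log2 scale and an SE of 0.12. Without the block, differences in level between animals also count as error.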

Additional observations from a re-analysis of the deposited data

How the results depend on the processing

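The direction of Tpm1 and Lmod1 was lower in all 17 alternatives run, and each was called in 9 of them, all with the replicate block. With the replicate block in edgeR the calls over all genes were 415 higher and 324 lower, and 0 and 2 of the 31 members. The fit with no replicate block gave 241 and 107 over all genes and 0 members lower. DESeq2 gave 709 and 622, with 1 member higher (Tln1) and 4 lower, and removal of the exon length trend gave 728 and 752, with 5 members lower. RLE or upper-quartile factors, other filters and limma-voom left the member counts at 0 higher and 2 or 3 lower. With no replicate block, the lower calls among other adhesion genes went from 3 to 1 and among actin nucleation genes from 4 to 2, and 0 of the further MRTF-SRF and smooth muscle targets rose. The calls of smooth muscle, keratinocyte, and melanocyte and Schwann cell markers went to 0 in that fit. With the length trend removed, 5 other adhesion genes, 3 fibroblast markers and 1 further MRTF-SRF target were lower, while limma-voom called 1 and DESeq2 called 3 smooth muscle markers lower, against 2 in edgeR. Over the fits that leave out an animal or a single library, calls over all genes ran from 46 to 806 higher and from 15 to 826 lower, members from 0 to 2 higher and from 0 to 3 lower, and the members' median log2 fold change from -0.24 to -0.063. The medians nearest 0 came without animal BW35773 (-0.063) and, with no block, without its treated library (-0.09) or the control of BW35772 (-0.13). None of the fits that leave out 1 library, which were run unpaired, called a member. Why the fits differ was not tested. Lmod1 and Actg2 had the fewest counts of the 31 genes, and how far depth limits them was not tested.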
